A study of Caenorhabditis elegans with 2 samples.

Results

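The ribosomal protein genes of Caenorhabditis elegans were examined in a chromatin immunoprecipitation and sequencing (ChIP-seq) experiment that targeted AMA-1, the large catalytic subunit of RNA polymerase II. They were taken as the protein-coding genes whose symbol is rpl, rps or rla with a plain number, plus ubl-1, in the Ensembl annotation of build WBcel235, the same assembly as ce11. This rule gave 80 genes of 19973 protein-coding genes. By symbol alone, 48 were assigned to the large (60S) subunit and 32 to the small (40S) subunit. The rule read gene names and no measured value. It leaves out rpl-7A, rpl-36.A and ubq-2, whose symbols have another form.

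The experiment held 1 group, whole L3 larvae of the wild-type reference strain N2, mixed in sex and of no stated age in hours, with 2 biological replicates from separately registered biosamples. No mutation, treatment or second stage was part of it, so every comparison below sets the ribosomal protein genes beside all protein-coding genes, or 1 replicate beside the other, and none has a test across samples. All tissues of the larva were mixed, so more cells with polymerase at a gene and more polymerase per cell cannot be told apart. The authors' control libraries were not analysed here, and the sequencing depth is unknown.

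A cytoplasmic ribosome holds 1 copy of nearly every ribosomal protein, and growing larvae need all of them in matched amounts. In many animals the genes are short and strongly transcribed, and several carry small nucleolar RNA (snoRNA) genes in their introns. In C. elegans many transcripts lose their first stretch, the outron, when a spliced leader is joined to them by trans-splicing. The annotated 5′ end of such a gene is the splice site, and transcription starts further upstream. Polymerase is found by this kind of assay where it stays longest, commonly near promoters and past the ends of genes.

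The authors' optimal list, thresholded by them for repeatability between replicates, held 3052 peaks, and their pooled list and each replicate's list held 30000 regions. Each peak has a summit, the base of its highest coverage, and a signal value that is the authors' own, on a scale not given in the sources used here. Of the 3052 optimal summits, 2806 had a summit within 200 bp in both replicate lists, so an optimal summit need not be present in each. Signals and ranks (rank 1 is the strongest) were read within a list. A gene was scored for summits from 1000 bp upstream of its annotated 5′ end to 500 bp past its 3′ end. Distances run in the direction of the gene, so that negative values lie upstream.

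The promoter-side sequences at 4 strong summits are shown first, because they hold letters that recur at summits of other ribosomal protein genes. Each is the 200 bases around the optimal summit, taken from the RefSeq genome of WBcel235 and written 5′ to 3′ in the direction of the gene. The rps-12 window is chrIII:5679016-5679215 on the plus strand, and the rpl-3 window is chrIII:3867454-3867653 on the plus strand. The rpl-15 window is chrIV:654828-655027 on the minus strand. The window between the divergent genes rpl-36 and rps-14 is chrIII:7179746-7179945, written on the plus strand in the direction of rpl-36. All 4 windows lie outside annotated exons. Capitals mark GGCCTAAA, CGATTTAC (GTAAATCG on the other strand) or CGCTACG.
rps-12: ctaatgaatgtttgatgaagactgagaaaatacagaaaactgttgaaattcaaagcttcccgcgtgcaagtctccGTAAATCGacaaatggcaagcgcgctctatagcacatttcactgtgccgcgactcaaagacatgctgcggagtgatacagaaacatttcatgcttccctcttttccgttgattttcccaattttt
rpl-3: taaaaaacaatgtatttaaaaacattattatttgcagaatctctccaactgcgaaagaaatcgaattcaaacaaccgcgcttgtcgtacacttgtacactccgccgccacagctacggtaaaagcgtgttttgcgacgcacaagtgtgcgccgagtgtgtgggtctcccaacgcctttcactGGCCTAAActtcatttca
rpl-15: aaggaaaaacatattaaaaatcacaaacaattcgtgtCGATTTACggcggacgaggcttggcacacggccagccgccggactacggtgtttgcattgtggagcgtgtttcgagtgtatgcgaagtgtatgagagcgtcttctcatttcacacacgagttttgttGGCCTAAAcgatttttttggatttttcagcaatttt
rpl-36 and rps-14: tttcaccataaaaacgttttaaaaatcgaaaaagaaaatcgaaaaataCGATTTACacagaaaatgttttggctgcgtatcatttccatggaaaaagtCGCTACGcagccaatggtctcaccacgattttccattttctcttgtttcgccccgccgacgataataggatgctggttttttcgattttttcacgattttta

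The last 30 bases before the annotated 5′ end are shown for rps-12, rpl-3, rpl-15, rpl-20 and rps-28, because this end is where trans-splicing leaves its letters. Capitals mark TTTCAG, the splice acceptor letters of this species. The stretches are chrIII:5679268-5679297 for rps-12, chrIII:3867824-3867853 for rpl-3, chrIV:654577-654606 for rpl-15, chrIV:4749779-4749808 for rpl-20 and chrIV:1659661-1659690 for rps-28, with rpl-15 and rpl-20 on the minus strand and the others on the plus strand.
rps-12: tattaacgagtcgaaatttctaatTTTCAG
rpl-3: taattttttcgtaaaattaatattTTTCAG
rpl-15: atctcgttattctaaccttttttcTTTCAG
rpl-20: cattccttgcatcatatttttgttTTTCAG
rps-28: ttttgtctttataatttcaatttcTTTCAG

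TTTCAG stood directly before the annotated 5′ end in 40 of the 80 ribosomal protein genes (50%), against 12.3% of all protein-coding genes. The share was 25 of 48 genes in the large subunit and 15 of 32 in the small subunit. These letters were searched on the strand of the gene. The annotated coding sequence began a median of 8.5 bp after the 5′ end and within 50 bp of it in 73 of the 80 genes. Most of these genes therefore have almost no annotated 5′ leader, and every distance below is measured from that end.

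Polymerase was found at most ribosomal protein genes and lay mainly upstream of them. An optimal summit stood in the scored window of 59 of the 80 genes (73.8%, exact Clopper-Pearson 95% interval 62.7 to 83.0%), against 11.9% of all protein-coding genes. In the 1000 bp upstream, 50 of the 80 genes had a summit (62.5%, 51.0 to 73.1%), against 5.54%. The nearest 500 bp held it in 47 genes, against 3.96%. Past the 3′ end, 15 genes had a summit (18.8%, 10.9 to 29.0%), against 4.50%. Inside the annotated gene, 3 genes had a summit (3.75%), against 5.63%, a share close to the background.

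The 3 genes with a summit inside them were rpl-3, rpl-19 and rla-1, all of the large subunit. In 42 genes the summits were upstream and nowhere else in the window, against 3.53% of all protein-coding genes. In 7 genes they stood both upstream and past the 3′ end, against 1.27%, and in 7 others past the 3′ end alone, against 2.06%. Gene length can change such shares, since the ribosomal protein genes had a median length of 755 bp (276 to 1734 bp), against 2027 bp over all protein-coding genes. Among the 8382 protein-coding genes of at most 1734 bp the share with a summit was 10.2% in the window and 5.33% upstream. Intervals cover counting error alone, and genes that share a summit are not independent.

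**Figure D1:**
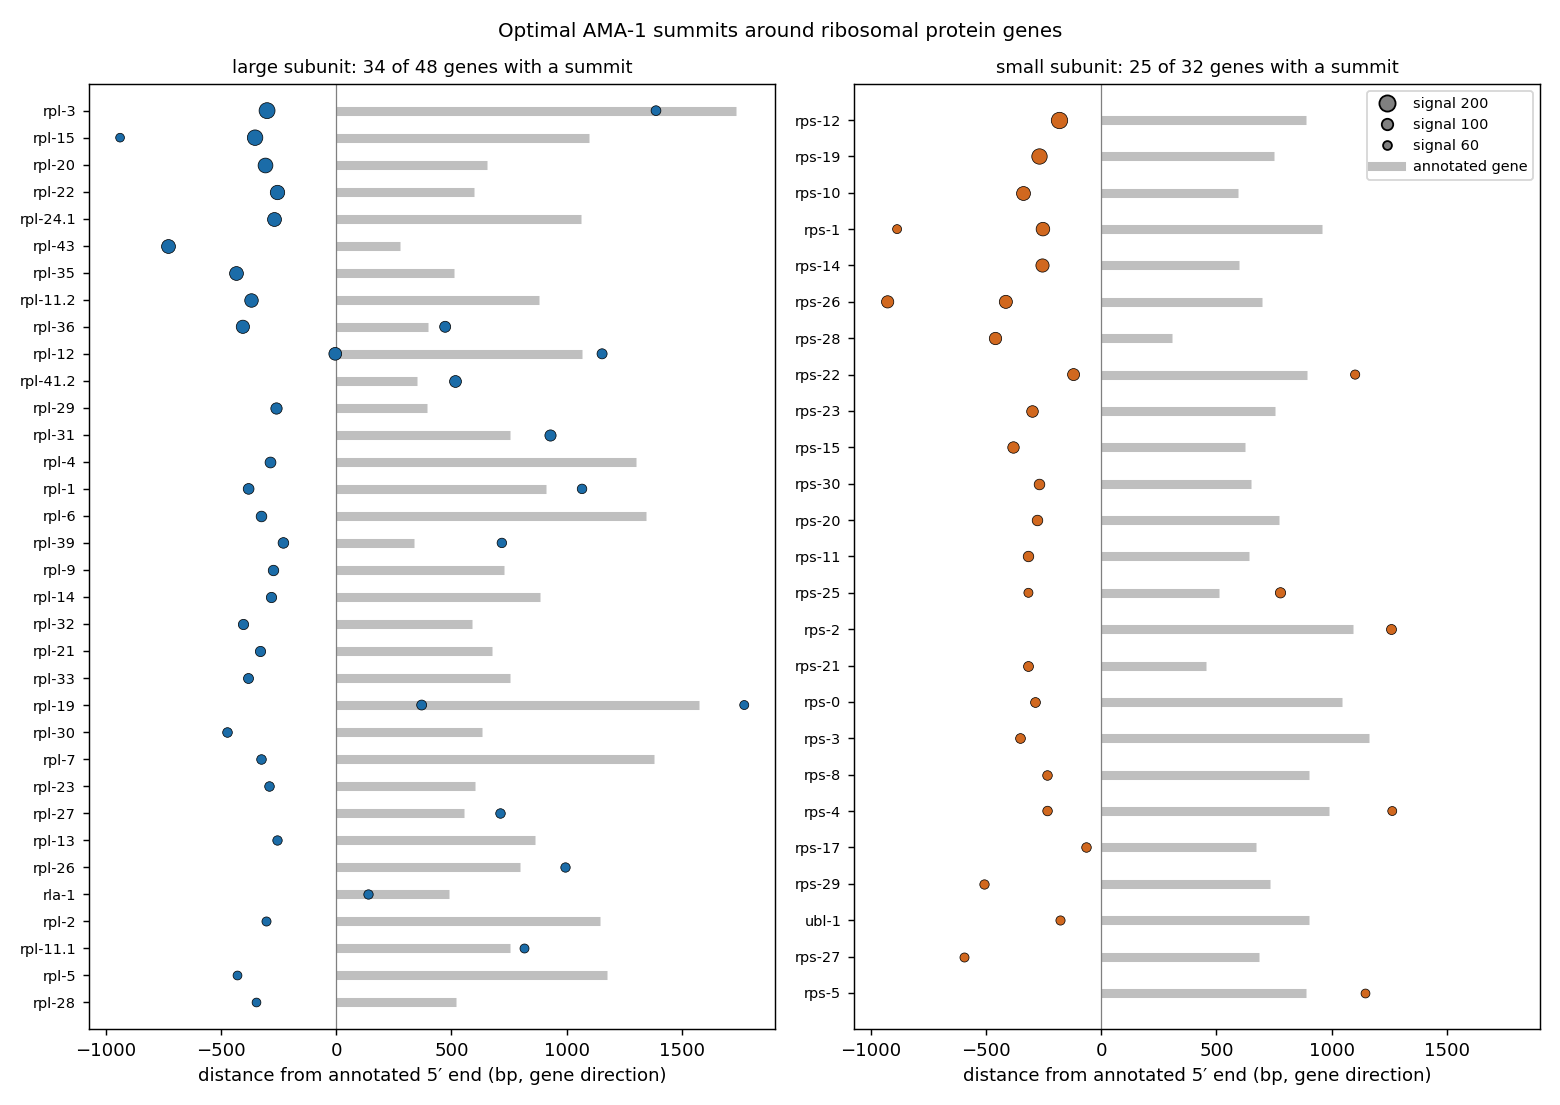
Each row is 1 ribosomal protein gene with at least 1 optimal AMA-1 summit, 34 of 48 large subunit genes on the left and 25 of 32 small subunit genes on the right, ordered by the signal of the strongest summit. Grey bars are the annotated genes, circles are summits with their area in proportion to the authors' signal, and the x axis is the distance from the annotated 5′ end in bp. Most circles form a column about 300 bp to the left of the 5′ end, with rpl-43 at -728 bp and rpl-12 at -4 bp as the farthest and the nearest of the strongest upstream summits.

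Genes of both subunits had this pattern. A summit in the window was found at 34 of 48 large subunit genes (70.8%, 55.9 to 83.0%) and at 25 of 32 small subunit genes (78.1%, 60.03 to 90.7%). Upstream the shares were 27 of 48 (56.3%, 41.2 to 70.5%) for the large subunit and 23 of 32 (71.9%, 53.3 to 86.3%) for the small subunit. Past the 3′ end they were 10 of 48 in the large and 5 of 32 in the small subunit. The intervals of the subunits overlap in each zone. The genes are not replicates of a condition, so the difference was not tested.

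The strongest upstream summit had a median position of -306.5 bp over the 50 genes that had one. In 35 of these 50 genes (70.0%) it lay between 400 and 200 bp upstream, against 30.02% of the 1106 protein-coding genes with an upstream summit. Their median was nearly the same, -312 bp, but their summits were spread over the whole window, with 21.6% within 150 bp of the 5′ end, against 3 of 50 ribosomal protein genes (6%). The median was -325 bp in the large and -286 bp in the small subunit. The range was narrower than in other genes, while the median was alike.

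The position was nearly the same in both replicates. Among the 3052 strongest regions of each replicate, the median was -307.5 bp in replicate 1 (38 genes) and -308 bp in replicate 2 (49 genes). At the optimal upstream summits, the summits of both replicates lay a median of 18.5 bp apart (1 to 218 bp). Genes with TTTCAG at the 5′ end had a median of -309 bp (27 genes) and the others one of -300 bp (23 genes). Between 400 and 200 bp upstream stood 21 of the 27 summits at genes with these letters and 14 of the 23 at genes without them. Some genes without them ended in near variants, such as TTACAG at rpl-11.2 and TTCCAG at rpl-9. The split therefore cannot part trans-spliced genes from the rest.

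**Figure D2:**
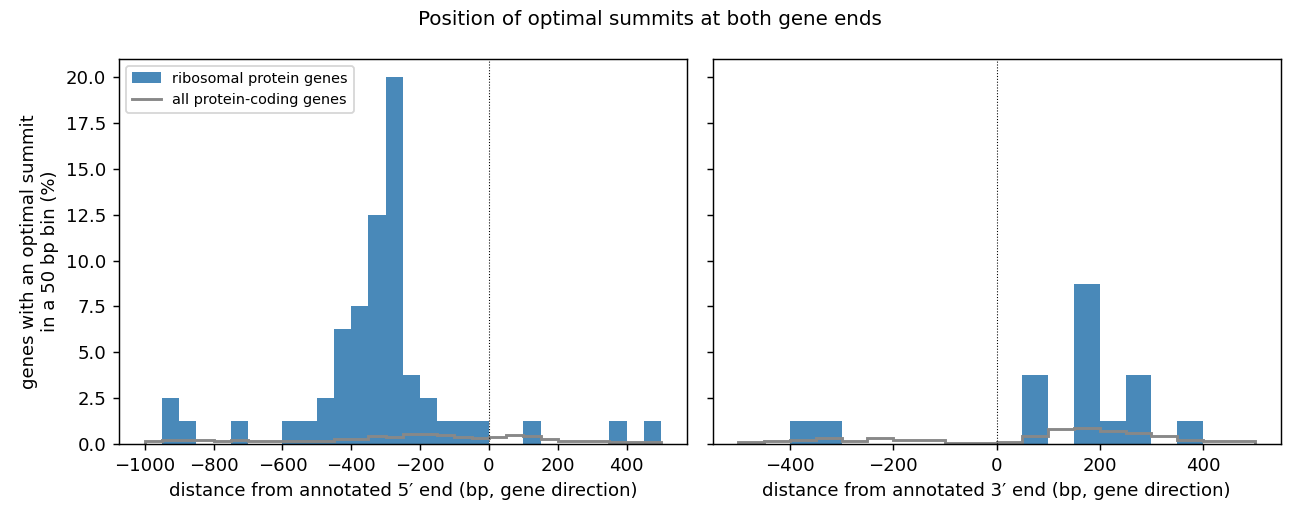
The y axis is the share of genes (%) with an optimal AMA-1 summit in each 50 bp bin, and the x axes are the distance in bp from the annotated 5′ end (left) and 3′ end (right), in gene direction. Filled blue bars are the 80 ribosomal protein genes and the grey line is all 19973 protein-coding genes. The blue bars peak near -300 bp at the 5′ end and between 50 and 300 bp past the 3′ end, while the grey line stays low and wide.

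The signals of these summits were ordinary for the optimal list. The strongest window summit of the 59 genes had a median signal of 84.3 (59.0 to 206), against 83.7 over the 2375 protein-coding genes with one and a highest value of 1168 in the list. Upstream summits had a median signal of 86.3, against 80.8, and summits past the 3′ end one of 69.6, against 85.0. The large and the small subunit had upstream medians of 86.6 and 85.2. Summits were called more often at ribosomal protein genes, and the strongest of those called had signals like those of other genes with one. These medians leave out every gene without an optimal summit, so they do not compare signal over all genes. In the pooled list, which also holds weaker regions, their strongest region had a median rank of 1786 (79 genes), against 8157 over 9616 protein-coding genes.

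**Figure D3:**
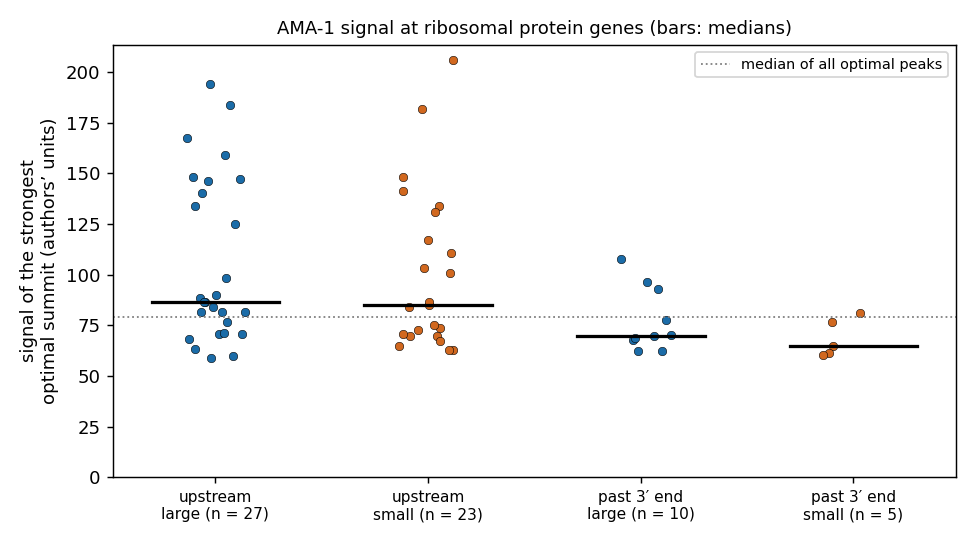
Points are the authors' signal of the strongest optimal summit of each ribosomal protein gene, upstream of the 5′ end and past the 3′ end, for the large (blue) and small (orange) subunit. Black bars are medians and the dotted line is the median of all optimal peaks, 79.2. Upstream points reach 206, while those past the 3′ end do not exceed 108.

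In the small subunit the strongest summit was that of rps-12, at chrIII:5679116, with a signal of 206. It stood at -182 bp and ranked 210 in replicate 1 and 157 in replicate 2. The rps-12 gene encodes a protein of the 40S beak and holds 2 snoRNA genes. Its summit was also 111 bp from the 5′ end of ska-3, on the other strand.

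The summit of rps-19 had a signal of 182 at -269 bp and ranked 518 in replicate 1 and 85 in replicate 2. Those of rps-1 (signal 141, at -253 bp) and rps-26 (131, at -414 bp) ranked 462 and 880 in replicate 1 and 506 and 589 in replicate 2. None of these 3 genes ranked below 880 in either replicate. The RPS-1 and RPS-26 proteins lie near the exit of the mRNA channel of the 40S subunit.

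In the large subunit rpl-3, which encodes a core protein close to the peptidyl transferase centre, had the strongest summit. It stood at chrIII:3867554, -300 bp from the 5′ end, with a signal of 194, and ranked 406 in replicate 1 and 73 in replicate 2. The summit of rpl-15 had a signal of 184 at -352 bp, with ranks of 350 in replicate 1 and 136 in replicate 2. Both genes had a further optimal summit, that of rpl-3 inside the gene (signal 73.0) and that of rpl-15 at -938 bp (58.4), inside the neighbour K11H12.8. These additional summits ranked 23294 and 20785 in replicate 2, so they were strong in replicate 1 alone, where they ranked 1156 and 2533.

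The summits of rpl-20 (signal 167, at -309 bp) and rpl-22 (159, at -258 bp) ranked 551 and 761 in replicate 1 and 158 and 134 in replicate 2. That of rpl-43 had a signal of 147 but stood at -728 bp, 193 bp from the 5′ end of Y48B6A.1 on the opposite strand. It ranked 797 in replicate 1 and 197 in replicate 2. This summit is the farthest from its gene among the strongest upstream summits of the 50 genes.

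Divergent pairs of ribosomal protein genes shared 3 of the upstream summits. The summit between rpl-24.1 and rps-10 had a signal of 148, at -269 bp of rpl-24.1 and -341 bp of rps-10, and ranked 538 in replicate 1 and 335 in replicate 2. The summit between rpl-36 and rps-14 had a signal of 134, at -405 bp of rpl-36 and -258 bp of rps-14, and ranked 399 in replicate 1 and 1112 in replicate 2. The summit between rpl-39 and rps-30 had a signal of 86.3, at -229 bp of rpl-39 and -270 bp of rps-30. Each of these pairs joins a large and a small subunit gene, and each summit was counted for both.

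Other neighbours were close as well. Of the 53 pairs of a gene and an upstream summit, 30 had the summit nearer to an end of another gene, and 33 had a 5′ end on the opposite strand as the nearest other end, within 500 bp. Counting each summit for the nearest gene end alone left 28 ribosomal protein genes with a summit in the window, against 8.26% of all protein-coding genes, and 23 with one upstream, against 3.16%. A window of 250 bp upstream left 8 genes with an upstream summit, against 2.35%, since most summits stood further out. Of the strongest summits above, those of rps-12, rps-19, rps-26, rpl-20, rpl-22 and rpl-43 were nearer to a 5′ end on the opposite strand. Those of rpl-3, rpl-15 and rps-1 were nearer to their own gene. Whether polymerase at a shared summit belongs to 1 gene or to both cannot be told apart in these lists.

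The stalk proteins, which recruit elongation factors to the ribosome, had no upstream optimal summit. The genes rla-0 and rla-2, for P0 and P2, had none in the window, and their strongest upstream pooled regions ranked 5095 and 8250. The gene rla-1, for P1, had a summit inside the gene at 138 bp (signal 67.6), which ranked 15512 in replicate 1 and 776 in replicate 2. An upstream same-strand gene, Y37E3.8, ends within 500 bp before rla-1. The ubl-1 gene, whose product fuses a ubiquitin-like domain to a 40S protein, had a summit at -177 bp with a signal of 64.8, which ranked 5161 in replicate 1 and 2226 in replicate 2.

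The rule holds 4 numbered gene pairs, paired by symbol alone, and whether the genes of a pair are copies of each other was not examined. Of the genes for RPL-11, a protein that binds 5S ribosomal RNA, rpl-11.2 had an upstream summit at -369 bp with a signal of 140, and rpl-11.1 had one 63 bp past its 3′ end with a signal of 62.2. For rpl-11.1 no upstream region was listed in the pooled list, while that of rpl-11.2 ranked 395. The rpl-24.1 summit was the shared one above, and rpl-24.2 had an upstream pooled region at rank 15246. Neither rpl-25.1 nor rpl-25.2 had an optimal summit. The genes rpl-41.1 and rpl-41.2 encode the smallest ribosomal protein and lie side by side; rpl-41.1 had no optimal summit, and rpl-41.2 had one 166 bp past its 3′ end, inside zig-7, with a signal of 108. Near-identical copies could also lose reads in mapping, which was not tested, because the lists hold no reads.

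The 21 genes without an optimal summit were rla-0, rla-2, rpl-10, rpl-16, rpl-17, rpl-18, rpl-24.2, rpl-25.1, rpl-25.2, rpl-34, rpl-37, rpl-38, rpl-41.1, rpl-42, rps-6, rps-7, rps-9, rps-13, rps-16, rps-18 and rps-24. Most of them had weaker regions. An upstream pooled region was found at 18 of them, against 28.0% of all protein-coding genes. The ranks of these regions ran from 3135 (rps-7) to 26002 (rpl-42), with a median of 5312. The strongest optimal summits of ribosomal protein genes held the same rank in both the optimal and the pooled list. Ranks beyond 3052 at genes without an optimal summit were therefore fixed in advance. The 6104 strongest pooled regions are double the number of optimal peaks. The share of all protein-coding genes with one of these upstream is not given here. Of the 21 genes, 11 had an upstream region among them. The gene rps-6, whose protein is the classic substrate of S6 kinase, had one at -322 bp with rank 5955.

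Regions of the pooled list stood upstream of 75 of the 80 genes, against 28.0% of all protein-coding genes. The gene rpl-37 was the exception in every list, with no region in the window of any of them. Repeat-masked bases made up 52.2% of its window. The gene rpl-42 had the 1 pooled region at rank 26002 and none in the replicate lists, and 33.2% of its window was masked. The part of mapping in these values was not tested.

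Genes placed inside likely operons (a same-strand protein-coding gene ending within 500 bp before the 5′ end) numbered 9, namely rla-1, rpl-16, rpl-19, rpl-25.1, rpl-27, rps-2, rps-7, rps-16 and rps-17, and 1 of the 9 had an upstream summit, rps-17 at -66 bp. This is 11.1% (0.281 to 48.2%), against 6.05% of the 3618 protein-coding genes so placed, while 49 of the other 71 ribosomal protein genes had one (69.0%, 56.9 to 79.5%), against 5.42% of the other protein-coding genes. The difference between these groups was not tested. The gap to the gene before was 98 to 120 bp at rla-1, rpl-16, rpl-25.1, rpl-27 and rps-16. At rpl-19, rps-2, rps-7 and rps-17 it was 357 to 481 bp. The only gene of this group with an upstream summit, rps-17, had the widest gap. In operons 1 promoter serves several genes, and it can lie outside the scored window. Of the 13 ribosomal protein genes with at least 1 of 19 snoRNA genes inside, 11 had an upstream summit (84.6%, 54.6 to 98.1%), against 30.2% of all 159 protein-coding snoRNA hosts. Of the other 67 ribosomal protein genes 39 had one (58.2%, 45.5 to 70.2%), against 5.34% of the other protein-coding genes. The intervals of the ribosomal protein genes overlap, and this difference was not tested. None of the 13 hosts had a summit within the gene. The 2 hosts without an upstream summit were rpl-26, with a summit past its 3′ end, and rps-13, with none.

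Most upstream summits were strong in both replicates, with the better rank more often in replicate 2. Upstream summits ranked among the 3052 strongest regions of both replicates in 32 of 50 cases (64.0%), against 46.3% of all 3052 optimal summits and 50.6% of the optimal summits upstream of any protein-coding gene. A further 4 (8%) were that strong in replicate 1 alone and 11 (22%) in replicate 2 alone, against 35.1% and 13.5% of all optimal summits. The rank was better in replicate 2 in 34 of the 50 (68%), against 42.8% of the 2806 optimal summits found in both replicates and 46.4% of the 900 such summits upstream of any protein-coding gene, and the median rank was 1514 in replicate 1 and 1010 in replicate 2. Spearman's rho between the replicates' ranks was 0.50 across the 50 summits, against 0.21 across all optimal summits found in both lists, as a description over summits of 2 libraries. Genes with an upstream summit among the strongest 3052 numbered 38 in replicate 1 (47.5%), against 5.11% of all protein-coding genes, and 49 in replicate 2 (61.3%), against 5.15%. In 33 genes both replicates had one (41.3%), against 2.96%.

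The genes that ranked highest in both replicates, by the worse of their ranks, were rps-12, rpl-15, rpl-3, rpl-35 and rps-1. Their ranks in replicate 1 were 210, 350, 406, 498 and 462, and in replicate 2 they were 157, 136, 73, 292 and 506. By the strongest summit of each gene, the widest gaps, taken as a ratio of ranks, were those of rpl-23, rla-1, rps-5, rpl-26 and rpl-31. For rpl-23 the upstream summit ranked 11426 in replicate 1 and 295 in replicate 2. For rps-5, rpl-26 and rpl-31 the summit past the 3′ end ranked 9754, 7938 and 2811 in replicate 1 and 755, 649 and 284 in replicate 2. These 5 stood higher in replicate 2. The next by this ratio, rpl-13, ran the other way, with its upstream summit at rank 1213 in replicate 1 and 11849 in replicate 2. By the difference of ranks rpl-13 would stand before rps-5, rpl-26 and rpl-31. The summit inside rpl-3 ran the same way as that of rpl-13, with rank 1156 in replicate 1 and 23294 in replicate 2. Among summits that were not the strongest of their gene, that past the 3′ end of rps-4 ranked 12512 in replicate 1 and 358 in replicate 2.

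Past the 3′ end the replicates differed. Among the 3052 strongest regions of each replicate, summits past the 3′ end were found at 8 of the 80 genes in replicate 1 (10%, 4.42 to 18.8%), against 4.0% of all protein-coding genes. In replicate 2 they were found at 37 genes (46.3%, 35.0 to 57.8%), against 5.31%. Both replicates had one at 4 genes, rpl-31, rpl-41.2, rps-2 and rps-25, which is 5% of the 80 genes, against 2.49%. A summit past the 3′ end ranked high in replicate 2 alone at 33 genes and in replicate 1 alone at rpl-24.2, rpl-27, rpl-39 and rps-22.

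The ranks of the same gene end differed too, by the strongest region there in each list, which need not be the same summit. Of 53 genes with a region past the 3′ end in both lists of 30000, 46 had the better rank in replicate 2 (86.8%), against 59.0% of 3056 protein-coding genes. The median rank was 10886 in replicate 1 and 2345 in replicate 2, against 8853 in replicate 1 and 6428 in replicate 2 over those genes. The direction was the same in 26 of 32 large and 20 of 21 small subunit genes. Upstream, 43 of 70 genes ranked better in replicate 2 (61.4%), against 51.2% of 3958 protein-coding genes.

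Single genes show the range. The region past the 3′ end of rps-4 ranked 12512 in replicate 1 and 358 in replicate 2, and that of rps-24, which had no optimal summit, ranked 27065 and 895. For rps-6 the ranks were 22860 in replicate 1 and 937 in replicate 2, and for rps-26 they were 22387 and 1280. The upstream summits of rps-26 ranked 880 in replicate 1 and 589 in replicate 2 at -414 bp, and 579 in replicate 1 and 948 in replicate 2 at -927 bp. These 4 genes were chosen from those with the widest gaps after their ranks were seen. What differed between the replicate libraries was not tested, since the lists give no depth and no reads.

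**Figure D4:**
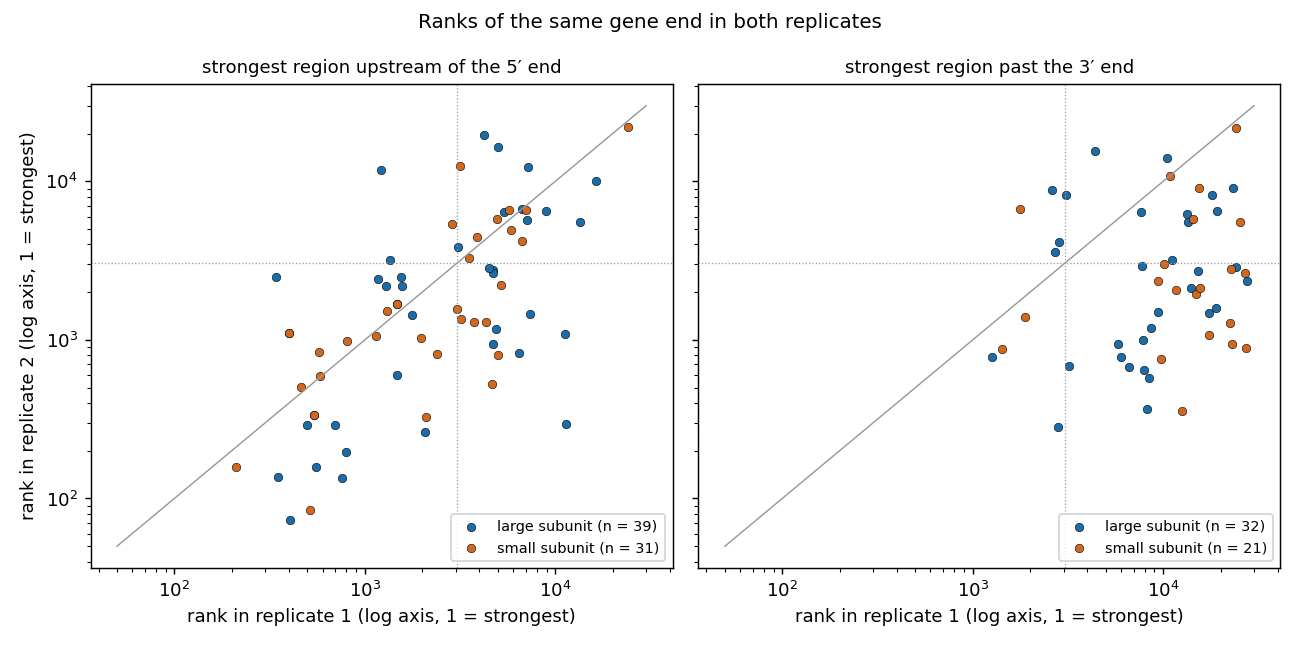
Each point is a ribosomal protein gene, placed by the rank of its strongest region in replicate 1 (x axis) and in replicate 2 (y axis), on log axes where 1 is the strongest, for regions upstream of the 5′ end (left) and past the 3′ end (right). Blue is the large and orange the small subunit, the grey line marks equal ranks and the dotted lines mark rank 3052. Upstream points lie on both sides of the line, with 43 of 70 below it, and past the 3′ end 46 of 53 lie below it, at better ranks in replicate 2.

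In both replicates most genes still had the stronger region upstream. Where a gene had regions at both ends, the upstream one had the higher signal in 50 of 60 ribosomal protein genes of the pooled list (83.3%), against 51.6% of 2863 protein-coding genes. It was so in 45 of 56 genes of replicate 1 (80.4%), against 52.7%, and in 39 of 62 genes of replicate 2 (62.9%), against 49.0%. The 15 optimal summits past the 3′ end stood a median of 172 bp beyond it (63 to 382 bp), against 202 bp over all protein-coding genes. Of these 15 summits, 10 were nearer to an end of another gene, and 10 had as their nearest other end the 5′ end of a same-strand gene within 500 bp, such as tag-115 after rpl-12 and egl-30 after rpl-27. The end of the first gene and the start of the next cannot be told apart there.

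Letters shared by the upstream summits were counted in the 200 bp around each of the 50 summits, on both strands. The letters TATAAA were found at 9 of the 50 summits (18.0%), against 11.9% of all 3052 optimal summits, CACGTG at 2 (4%), against 7.54%, CTGCGTC at 2 (4%), against 7.83%, and GCGCGC at 5 (10%), against 5.57%. In the 300 bp before the 5′ end TATAAA stood in 28.8% of the ribosomal protein genes, against 39.6% of all protein-coding genes, and in the 600 bp before it in 61.3%, against 59.7%. GC content was 42.1% ± 4.52 (SD, n = 50 summits), against 43.0% ± 5.82 (n = 3052). A missing match says only that these letters are not in the window.

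Other letters stood out when every word of 6 to 8 letters at these summits was counted. Those below were chosen or put together from that scan after counts were seen. Their shares are a description, with no test. GGCCTAAA was found at 15 of the 50 summits (30%), against 26 of all 3052 (0.852%), so 57.7% of the summits that hold it were those of ribosomal protein genes. CTGAGTAT was found at 11 of the 50 (22.0%), against 21 of 3052 (0.688%), and CGATTTAC at 11 (22.0%), against 45 of 3052 (1.47%). CGAGTGT followed by any base and ACCGTA was found at 8 (16.0%), against 15 of 3052 (0.491%), and CGCTACG at 8 (16.0%), against 31 of 3052 (1.02%). The pair of CGAGTGT and ACCGTA is longer than any word scanned, so it was put together after the scan. None of the 5 contains another, and GGCCTAAA holds GCCTAA, a unit of the telomere repeat of this species.

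Of the 50 upstream summits, 37 (74.0%) held at least 1 of the 5, against 117 of 3052 (3.83%), and 14 held at least 2. None of the 15 summits past the 3′ end held any, but 15 summits are too few to tell this from the 3.83% of all optimal summits. In the 600 bp before the 5′ end, 54 of the 80 genes (67.5%) held at least 1, against 6.78% of all protein-coding genes. At most genes with an upstream summit this stretch covers the bases from which the letters were chosen. That share is therefore not independent of the choice. The letters were thus found at genes with and without an upstream summit, though unevenly. Among the 30 genes without an upstream optimal summit, GGCCTAAA stood there in 8, CGATTTAC in 5 and CGCTACG in 2. The pair of CGAGTGT and ACCGTA stood there in 3 of them and CTGAGTAT in none. The shares over all protein-coding genes were 1.96%, 2.70%, 1.65%, 0.195% and 0.941%, in that order. In the large subunit 14 of 48 genes had GGCCTAAA there and in the small subunit 9 of 32.

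GGCCTAAA and CTGAGTAT came up in both subunits when each was scanned apart. CGATTTAC was not among the words that stood out most in either. CGCTACG and the pair of CGAGTGT and ACCGTA are not 8 letters long, so this scan could not list them. Among words of 8 letters, GGCCTAAA was chosen at the summits of large subunit genes (9 of 25) and was found at 6 of 22 summits of small subunit genes, leaving out the 3 shared summits. ATACTCAG, which is CTGAGTAT on the other strand, was chosen at 6 of the 25 and found at 4 of the 22. GCAGCCAA, chosen at 5 of the 22 small subunit summits, was found at 1 of the 25 large ones. TAGGCCAA, chosen at 4 of the 22, was also found at 1 of the 25. The first scan had pooled both subunits, so this split is not independent of it.

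Examples of CTGAGTAT are shown with 10 bases on either side, because the letters around it are alike as well. They lie on the plus strand at chrIII:1950422-1950449 (rps-22), chrII:9057429-9057456 (rpl-32) and chrIII:6206470-6206497 (rps-3), and on the minus strand at chrIII:7208114-7208141 (rpl-6), chrIII:7573064-7573091 (rpl-9) and chrIII:5706392-5706419 (rpl-23). Capitals mark CTGAGTAT.
rps-22: ggctgcttggCTGAGTATtcaacgttaa
rpl-32: aggtcgttggCTGAGTATtcaacgtttt
rps-3: tggccgttgaCTGAGTATtcaacgcttc
rpl-6: ggcttgttgcCTGAGTATtcaatgcctc
rpl-9: ttctatttcgCTGAGTATcgacgctata
rpl-23: gaatagttggCTGAGTATcaaacgttaa

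Examples of CGAGTGT, any base and ACCGTA, the longest of the 5, are shown in the same way. They lie on the plus strand at chrIV:13881969-13882002 (rpl-29), chrIV:12391289-12391322 (rps-23), chrIII:7208066-7208099 (rpl-6) and chrIII:793796-793829 (rps-29), and on the minus strand at chrX:2242950-2242983 (rpl-11.2) and chrIII:8130508-8130541 (rpl-21). Capitals mark the letters searched with the free base between them.
rpl-29: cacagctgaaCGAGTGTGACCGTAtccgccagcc
rps-23: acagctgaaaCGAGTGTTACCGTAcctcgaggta
rpl-6: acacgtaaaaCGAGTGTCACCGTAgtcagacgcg
rps-29: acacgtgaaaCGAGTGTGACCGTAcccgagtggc
rpl-11.2: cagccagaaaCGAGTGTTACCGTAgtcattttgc
rpl-21: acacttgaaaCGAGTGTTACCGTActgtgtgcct

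The letters had places of their own relative to the summit. All 15 matches of GGCCTAAA lay on the side of the gene, with a median of 68.5 bp from the summit (3.5 to 95.5 bp). All 11 matches of CGATTTAC lay on the far side, with a median of -44.5 bp (-66.5 to -17.5 bp). CTGAGTAT lay on the side of the gene in 10 of 11 matches (median 20.5 bp, -40.5 to 72.5 bp). The pair of CGAGTGT and ACCGTA did so in 7 of 8 (median 23.5 bp, -39.5 to 47.5 bp). CGCTACG lay on the side of the gene in 2 of 8 (median -16.5 bp, -91 to 45 bp). Positions could reach at most 100 bp on either side, and at a summit shared by divergent genes the direction of the gene named first in the list was used. In the rpl-15 window above, CGATTTAC and GGCCTAAA stand on opposite sides of the summit.

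GGCCTAAA is shown with 10 bases on either side for 4 genes, on the plus strand at chrIII:3867626-3867653 (rpl-3) and chrIV:1659306-1659333 (rps-28), and on the minus strand at chrIV:654846-654873 (rpl-15) and chrIII:8130469-8130496 (rpl-21). In these genes the letters run in the direction of the gene, as in 10 of the 15 matches.
rpl-3: gcctttcactGGCCTAAActtcatttca
rps-28: tgattgcgttGGCCTAAAatattttctc
rpl-15: gagttttgttGGCCTAAAcgattttttt
rpl-21: ttatgctactGGCCTAAAgattttttct

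Other genes of translation were occupied to different degrees. All 6 elongation factor genes of the eef group had a summit in the window, and 4 had one upstream. Of 70 genes for mitochondrial ribosomal proteins, 16 had a summit in the window (22.9%, 13.7 to 34.4%) and 7 had one upstream. Of 33 initiation factor genes, 5 had one in the window (15.2%), and so did 5 of 31 genes for aminoacyl-tRNA synthetases (16.1%), shares close to the 11.9% of all protein-coding genes. Of 15 genes for ribosome biogenesis, 6 had one (40%, 16.3 to 67.7%). The interval of the mitochondrial ribosomal proteins lies below that of the 80 cytoplasmic ones, and the difference was not tested.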

How the data were processed

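AMA-1 ChIP-seq of 2 replicates of N2 L3 larvae was read from 4 peak lists in build ce11. Per the file headers of the accompanying notes, the authors made the pooled list from the reads of both replicates with a control library, and the optimal list from the replicate lists and the pooled list. The lists hold a deposited signal value per peak, the authors' own, on a scale that is not stated. Neither aligner, peak caller, threshold nor depth is stated (not given in the sources used here), so a gene without a peak is not one without polymerase. Lists in ce10 were not used.

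Peaks were ranked by signal within a list with Python 3.11.15, pandas 2.3.3, numpy 2.4.6 and scipy 1.17.1. Genes came from Ensembl release 115 of WBcel235 and sequence from the RefSeq genome of the same assembly. Summits were matched between lists within 200 bp. The zones and distances were tested on simulated data. Shares carry exact Clopper-Pearson 95% intervals for counting error. No p-value was computed, since 1 group of 2 replicates allows no test. Alternatives were other windows, peak overlap, fewer or more peaks, nearest ends, no operon members, each replicate alone, and other match distances.

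Every member could be named. Full values were given for the 6 genes per subunit with the strongest summit, the stalk genes, ubl-1, numbered pairs and genes without a summit. They were also given for the 5 genes with the best worse rank and the 5 with the widest ratio of replicate ranks. The members and lists were chosen with earlier results of these data known. The 5 letter sets found by scanning, the background of short genes, the band from 400 to 200 bp and the comparison of gene ends were added after the data were seen. The sequence at 1 further summit is not reported here.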

Additional observations from a re-analysis of the deposited data

How the results depend on the processing

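The counts depended on how wide the window was and on how summits were given to genes. With 250 bp upstream and no 3′ flank, 11 genes had a summit in the window (5 large, 6 small subunit) and 8 upstream (2 large, 6 small). With the 1526 strongest optimal peaks, 35 had one in the window (21 large, 14 small), 32 upstream (13 of them small subunit), 0 in the gene and 4 past the 3′ end. With each summit given to its nearest gene end, 28 had one in the window (16 large, 12 small), 23 upstream (12 large, 11 small) and 5 past the 3′ end. With the 6104 strongest pooled regions, 7 had one in the gene and 26 past the 3′ end. Any overlap with the peak gave 10 in the gene, and leaving out likely operon genes gave 1. With each replicate alone, the counts were 44 to 68 in the window, 38 to 49 upstream, 3 to 6 in the gene and 8 to 37 past the 3′ end, where replicate 2 gave the higher value. Then 26 to 38 large and 18 to 30 small subunit genes had a summit in the window, and 21 to 28 large and 17 to 21 small had one upstream. The median distance ranged from -308 to -307.5 bp in the replicates and was -318 bp from the coding start. The ratio of the median signal to that of all protein-coding genes was 1.01 in the optimal list and 1.04 to 1.16 among the 3052 strongest regions of each replicate. Among the 1526 strongest regions, 20 upstream summits stood in both replicates. The counts from the 1526 strongest peaks, the 6104 strongest pooled regions and any overlap stand without the share over all protein-coding genes. They show how the counts shift, and not whether they exceed the background. The cause of these shifts was not tested.

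Of 81 results under alternatives, 49 stayed within the spread or within 1.5 times the count. No paired analysis was possible because the study has 1 group. Unknown depth, a signal of unstated scale and shared summits limit what these counts can show.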

Other observations

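On chromosome III 16 of 19 ribosomal protein genes had an upstream optimal summit (84.2%, 60.4 to 96.6%), against 9.58% of all protein-coding genes there. On chromosome I 13 of 25 had one (52%, 31.3 to 72.2%), against 7.02%. The counts were 5 of 9 on chromosome II, against 5.22%, 10 of 17 on IV, against 5.49%, 5 of 8 on V, against 3.72%, and 1 of 2 on X, against 3.84%. The intervals overlap and the differences between chromosomes were not tested.

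Signal of the strongest upstream summit showed little relation to gene length (Spearman's rho -0.06 across 50 genes) or to the distance from the 5′ end (rho 0.08), as a description across genes that partly share summits.

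Ribosomal protein genes outside the naming rule were like the rest in part. The gene rpl-36.A had an upstream summit at -333 bp (signal 77.0) and ubq-2, which encodes ubiquitin fused to RPL40, one at -428 bp (82.1), while rpl-7A had none in the window. The genes rpl-7A and ubq-2, but not rpl-36.A, had GGCCTAAA in the 600 bp before the 5′ end, against 1.96% of all protein-coding genes. Other translation genes with it were eef-1A.2 and eef-1B.1 among the elongation factors, and eif-3.D, mars-1, mrpl-37 and mrpl-49. These genes were named after their values were seen.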
